A study of Mus musculus with 14 samples.

Results

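The angiogenic and growth factor ligands described here were 9 genes, Vegfa, Vegfb, Pdgfa, Pdgfb, Angpt2, Thbs1, Igf1, Hbegf and Hgf, taken with every probe that the array's annotation assigned to these symbols. They were represented by 17 of the 45281 probes, and by 9 of the 19057 genes with a single symbol. The cells were bone marrow-derived myeloid cells of C57Bl/6J mice aged 14 weeks. The mice had been lethally irradiated and given haematopoietic stem cells that carried green fluorescent protein (GFP), and cells positive for both GFP and CD11b were sorted for RNA. Brain metastases (BrM) had been established by intracranial implantation of PyMT or EO771 cells, both murine breast cancer cell lines, about 2 weeks before harvest.

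There were 14 arrays: 4 of PyMT BrM and 2 of EO771 BrM, 3 of spleen and 1 of bone marrow from mice with PyMT BrM, and 2 each of spleen and bone marrow from naïve mice, which had no tumour. The naïve tissues stood in for the spleen and marrow of EO771-bearing mice. Tissue and tumour bearing therefore cannot be told apart in the EO771 comparison. In the difference between the model comparisons, tumour model and tumour bearing of the control mice cannot be told apart. Implantation places cells directly in the brain and leaves out the earlier steps of metastasis, and brain-resident microglia of the host carry no GFP. The code of EO771 BrM 2 holds 2 numbers and the naïve marrow arrays share 1 code, and whether animals were pooled or sampled again was not stated. Codes were also shared between PyMT BrM and PyMT spleen or marrow arrays, and between naïve spleen 1 and the naïve marrow arrays. Nothing in the labels says outright that the remaining replicates were separate animals, so the p-values measure the spread between these arrays.

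All values are log2 intensities normalised between arrays, on which a difference of 1 is a doubling. The median over all probes was 4.06, and a probe averaging below it is called dim here. PyMT spleen 2 stood apart from its label: over all probes it correlated at 0.949 with the PyMT bone marrow array and at 0.907 and 0.904 with the other PyMT spleens, and results that rest on it are given with and without it. Mean macrophage marker levels were 10.89 to 11.35 in BrM against 8.10 to 10.07 in spleen and marrow, with 9 of 14 markers higher, and mean neutrophil marker levels were 6.53 to 9.10 against 11.35 to 12.76, with 13 of 14 lower. Itgam, which encodes the CD11b used in the sort, differed by 0.33 with an adjusted p of 0.776. In such bulk samples, fewer cells of a type and less RNA per cell cannot be told apart, and the part of this cell mixture in the results below was not tested.

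The ligands act on blood vessels and on neighbouring cells through receptor tyrosine kinases, except thrombospondin. Vegfa drives endothelial growth through Vegfr2, Vegfb binds Vegfr1, and Angpt2 acts on the endothelial receptor Tie2, where it mostly opposes Angpt1 and loosens vessels. Pdgfa and Pdgfb recruit pericytes, fibroblasts and oligodendrocyte precursors, Igf1 and Hgf signal through Igf1r and Met, and Hbegf is shed from the membrane to activate the epidermal growth factor receptor. Thbs1 is a matrix glycoprotein that restrains angiogenesis through Cd36 and Cd47 and activates latent Tgfb. Tumour-associated macrophages are a known source of several of these factors.

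Of the 9 ligands, Pdgfa, Thbs1 and Angpt2 were higher in BrM than in spleen and bone marrow, and none was lower. The 3 rises were 12.8-fold for Pdgfa, 17.6-fold for Thbs1 and 5.03-fold for Angpt2 (6 BrM arrays against 8), each with an adjusted p under 0.01 by limma. At an unadjusted p under 0.05, 4 ligands were higher (Hbegf besides these 3) and 1 lower (Igf1). The Thbs1 mean in spleen and marrow was 4.19, near the median probe, and whether it was above background is not known, so that its folds here and below are those of the measured values and are not ranked against the others. Over the whole array, 3.80% of probes were called higher and 3.12% lower in this comparison. For the same 3 genes, all 6 BrM arrays lay above all 8 others, as 3.26% of all probes did. Such a share is not given for the smaller comparisons below, where fewer arrays lie apart more readily by chance. Separations there are descriptions only.

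**Figure D1:**
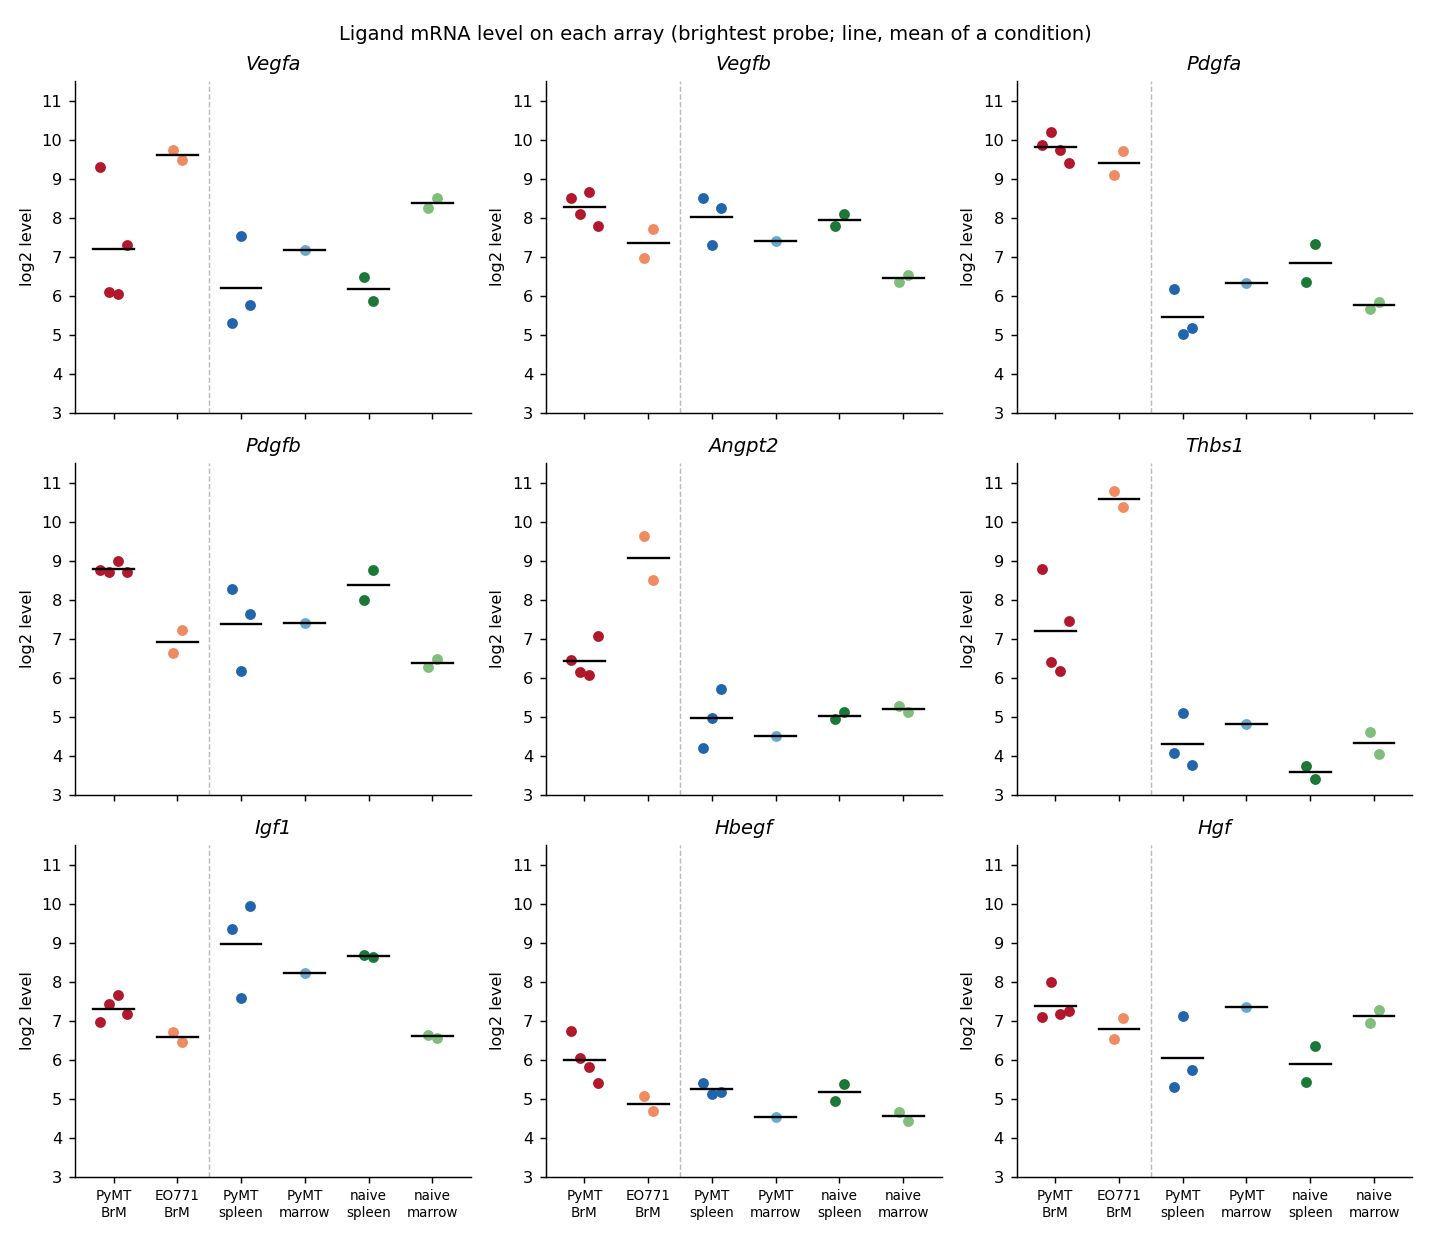
Log2 level of each ligand's brightest probe (y axis) on the 14 arrays, by condition (x axis); points are arrays, lines are condition means, and the dashed line divides BrM from spleen and bone marrow. Pdgfa, Thbs1 and Angpt2 were above every spleen and marrow array in all 6 BrM, and Angpt2 and Thbs1 were highest in the 2 EO771 BrM.

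Pdgfa, a ligand of Pdgfra, was far apart in the 2 groups. Its level was 9.85, 10.20, 9.74 and 9.41 in the PyMT BrM and 9.08 and 9.71 in the EO771 BrM. It was 6.18, 5.01 and 5.18 in the PyMT spleens, 6.32 in the PyMT marrow, 6.34 and 7.33 in the naïve spleens, and 5.66 and 5.84 in the naïve marrow. The lowest BrM array was thus above the highest of the others, naïve spleen 2. The log2 difference was 3.68 (SE 0.31, 95% confidence interval 3.02 to 4.34, adjusted p = 8.96e-07), and stayed between 3.54 and 3.88 whichever array was left out.

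Thbs1 separated as fully but varied more among the BrM. It read 8.79, 6.39, 6.17 and 7.45 in the PyMT BrM and 10.79 and 10.38 in the EO771 BrM. The spleens read 4.07, 5.09 and 3.76 in PyMT BrM-bearing mice and 3.74 and 3.40 in naïve mice, and the marrow 4.81 in PyMT BrM-bearing mice and 4.62 and 4.05 in naïve mice. Both EO771 BrM were above all 4 PyMT BrM, and many spleen and marrow arrays lay close to the array's median probe. The difference was 4.14 (SE 0.64, adjusted p = 3.64e-04). Thbs1 is also a platelet product: mean platelet marker levels were 4.22 to 5.45 in BrM and 4.09 to 7.88 in spleen and marrow, and of 8 such genes 1 was higher (Pf4, by 3.13) and 1 lower (Gp1bb, by 2.63 on the log2 scale). Itga2b, a defining marker, was 3.26 to 4.33 in BrM, and its part in the Thbs1 level was not tested.

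Angpt2 was 6.45, 6.14, 6.08 and 7.06 in the PyMT BrM and 9.63 and 8.50 in the EO771 BrM. It was 4.20, 4.96 and 5.71 in the PyMT spleens, 4.51 in the PyMT marrow, 4.94 and 5.11 in the naïve spleens, and 5.28 and 5.13 in the naïve marrow. The gap was narrow for PyMT, whose lowest BrM was just above PyMT spleen 3. The difference was 2.33 (SE 0.48, adjusted p = 0.00353), and without EO771 BrM 2 it was 2.09 with an adjusted p of 0.0105. A second Angpt2 probe was dim and did not follow the first, with 2.36 to 3.25 in BrM against 1.88 to 3.84 in spleen and marrow (difference -0.03, adjusted p = 0.976). Endothelial cells are a major source of Angpt2; mean endothelial marker levels were 4.79 to 6.08 in BrM against 5.19 to 6.43 in spleen and marrow, and none of the 11 genes was called. Cdh5 differed by 0.09 (adjusted p = 0.889).

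Markers of other cells also differed between BrM and the control tissues. Fibroblast and pericyte markers averaged 4.08 to 4.82 in BrM against 3.59 to 3.97 in spleen and marrow, with 2 of 9 higher (Dcn and Lum), while Col1a1 and Col3a1 were not called. Epithelial and carcinoma markers averaged 4.24 to 5.63 against 3.79 to 4.38, with 2 of 9 higher (Krt8 and Cdh1), while Epcam was 2.53 to 3.12 in BrM. Brain cell markers averaged 5.31 to 6.07 against 4.59 to 5.07, with 2 of 10 higher (Tmem119 and Aldoc) and 1 lower (Mbp). Markers of other blood lineages were lower in BrM: erythroid markers averaged 4.81 to 6.44 against 5.96 to 10.68, with 4 of 6 lower, B cell markers 3.71 to 4.57 against 5.81 to 8.48, with 3 of 5 lower, and T and NK cell markers 3.97 to 5.75 against 5.09 to 6.19, with 2 of 7 lower. Monocyte markers averaged 8.93 to 10.90 against 9.13 to 10.55, with 3 of 8 higher and 1 lower. The part of these cells in the ligand levels was not tested.

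**Figure D2:**
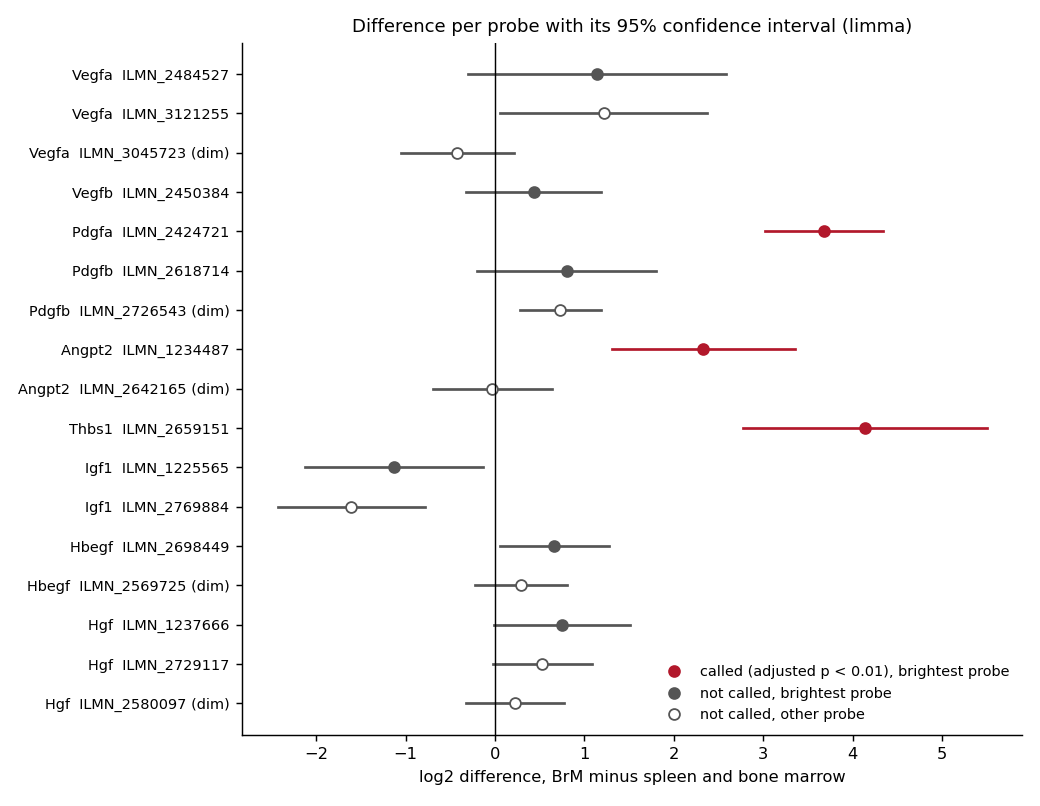
Log2 difference, BrM minus spleen and bone marrow (x axis), with its 95% confidence interval for each of the 17 probes (y axis); filled points are the brightest probe of a gene and red points are called. Only the brightest probes of Pdgfa, Angpt2 and Thbs1 were called, at 3.68, 2.33 and 4.14.

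Of the 6 ligands that were not called, Vegfa varied widely among the BrM arrays. It read 9.30, 6.09, 6.05 and 7.31 in the PyMT BrM and 9.74 and 9.48 in the EO771 BrM. The PyMT spleens read 5.31, 7.52 and 5.76 and the PyMT marrow 7.17, with 6.49 and 5.86 in the naïve spleens and 8.25 and 8.50 in the naïve marrow. In 3 of the 6 BrM, PyMT BrM 1 and both EO771 BrM, it exceeded every spleen and marrow array, and the others lay within their range. The difference was 1.14 (95% confidence interval -0.30 to 2.58, adjusted p = 0.362). A second probe gave 1.22 (adjusted p = 0.190), and a dim probe gave -0.42 (adjusted p = 0.468). Vegfb read 8.51, 8.09, 8.65 and 7.79 in the PyMT BrM and 6.97 and 7.71 in the EO771 BrM, against 6.36 to 8.51 elsewhere (difference 0.43, adjusted p = 0.553).

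Pdgfb, the ligand of pericyte Pdgfrb, was even across the PyMT BrM at 8.77, 8.71, 8.98 and 8.71, and was 6.62 and 7.22 in the EO771 BrM. It read 8.27, 6.18 and 7.64 in the PyMT spleens, 7.39 in the PyMT marrow, 7.98 and 8.76 in the naïve spleens, and 6.27 and 6.48 in the naïve marrow. Naïve spleen 2 thus lay within the range of the PyMT BrM and every other spleen and marrow array below it, and the pooled difference was 0.80 (SE 0.47, adjusted p = 0.356). A dim second probe gave 0.73 (SE 0.21, adjusted p = 0.0331). Unlike Pdgfa, then, Pdgfb did not pass the threshold on either probe.

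Igf1 was the one ligand with a negative difference on its brightest probe. It read 6.96, 7.42, 7.66 and 7.18 in the PyMT BrM and 6.71 and 6.46 in the EO771 BrM. The spleens read 9.35, 7.58 and 9.95 in PyMT BrM-bearing mice and 8.67 and 8.62 in naïve mice, and the marrow 8.23 in the PyMT model and 6.63 and 6.56 in naïve mice. On the brightest probe, BrM lay near naïve marrow and below 4 of the 5 spleens. The pooled difference was -1.13 (SE 0.47, adjusted p = 0.147), and the second Igf1 probe gave -1.61 (SE 0.39, adjusted p = 0.0107). On that second probe, 5 of the 6 BrM lay below all 8 spleen and marrow arrays, naïve marrow included. Against the spleen arrays only, Igf1 was lower in BrM by 1.85 on the log2 scale (SE 0.36, adjusted p = 0.00490), together with the rises of Angpt2, Pdgfa and Thbs1. In that comparison 3.67% of all probes were called higher and 3.08% lower. Against bone marrow only, Angpt2, Pdgfa and Thbs1 were the ligands called, all higher, beside 4.19% of all probes.

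**Figure D3:**
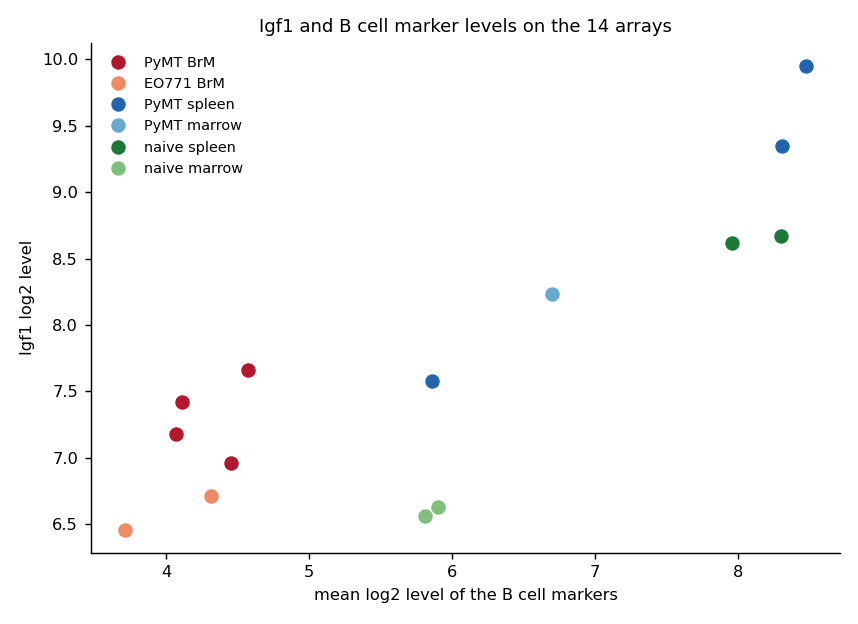
Igf1 level (y axis, log2, brightest probe) against the mean level of 5 B cell markers (x axis, log2) on the 14 arrays, coloured by condition. The 4 spleens with Igf1 at 8.62 or above had B cell marker means of 7.96 to 8.48, and PyMT spleen 2 lay nearer the bone marrow arrays on the marker axis.

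The spleens high in Igf1 were also those high in B cell markers. These averaged 3.71 to 4.57 in BrM, 8.31, 5.86 and 8.48 in the PyMT spleens, 6.70 in the PyMT marrow, 8.30 and 7.96 in the naïve spleens, and 5.90 and 5.81 in the naïve marrow. The PyMT BrM, at 4.07 to 4.57, were below naïve marrow in these markers. Their Igf1 was 6.96 to 7.66, above the 6.63 and 6.56 of naïve marrow, and that of the EO771 BrM was 6.71 and 6.46. PyMT spleen 2 was the lowest spleen in both measures. It was also the lowest spleen in macrophage markers, which averaged 9.38, 8.10 and 9.31 in the PyMT spleens, 8.73 in the PyMT marrow, 9.23 and 10.07 in the naïve spleens, and 8.22 and 8.20 in the naïve marrow, but 10.89 to 11.35 in BrM. PyMT spleen 2 was also the lowest spleen in T and NK cell markers, at 5.49 against 5.57 to 6.19 in the other spleens. The part of B cells, T and NK cells or macrophages in the Igf1 level was not tested.

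Hbegf and Hgf were not called. Hbegf read 6.73, 6.03, 5.82 and 5.39 in the PyMT BrM and 5.06 and 4.68 in the EO771 BrM, against 4.44 to 5.41 in spleen and marrow (difference 0.66, SE 0.29, adjusted p = 0.172). On this probe, 3 of the 4 PyMT BrM exceeded all spleen and marrow arrays, and the EO771 BrM did not. A dim second Hbegf probe read 3.18 to 3.84 in the PyMT BrM and 3.95 and 3.82 in the EO771 BrM. It read 2.59 to 3.92 in spleen and marrow (difference 0.29, adjusted p = 0.552 by limma). Hgf read 7.10, 7.99, 7.16 and 7.25 in the PyMT BrM and 6.52 and 7.07 in the EO771 BrM. It read 5.29, 7.12 and 5.73 in the PyMT spleens, 7.34 in the PyMT marrow, 5.42 and 6.34 in the naïve spleens, and 6.95 and 7.27 in the naïve marrow. The marrow was therefore at the level of BrM, and the difference was 0.75 (SE 0.36, adjusted p = 0.222).

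Each model was next set against its own spleen and marrow arrays. In PyMT (4 BrM against 4), Pdgfa was higher by 4.13 (SE 0.39, adjusted p = 1.89e-05), Thbs1 by 2.77 (SE 0.50, adjusted p = 0.00298) and Angpt2 by 1.59 (SE 0.34, adjusted p = 0.00826). These were 3 of the 9 ligands, with 0 called lower, beside 2.92% of all probes higher and 1.87% lower. At an unadjusted p under 0.05 by limma, 5 were higher (Pdgfb and Hbegf besides these 3) and 1 lower (Igf1). Leaving out 1 of 11 arrays, all but PyMT spleen 3 and both EO771 BrM, ended the Angpt2 call (adjusted p up to 0.0293), and leaving out PyMT BrM 4 or PyMT spleen 1 ended that of Thbs1 (adjusted p = 0.0115 and 0.0106). Fitted on the PyMT arrays alone, the differences were the same, but Thbs1 (adjusted p = 0.0148) and Angpt2 (adjusted p = 0.0253) were not called, and with all its probes averaged Angpt2 differed by 0.69 (adjusted p = 0.159). The other ligands did not pass: Pdgfb by 1.42 (adjusted p = 0.102), Hbegf by 0.93 (adjusted p = 0.0661), Hgf by 1.00 (adjusted p = 0.219), Vegfa by 0.75 (adjusted p = 0.606), Vegfb by 0.39 (adjusted p = 0.619) and Igf1 by -1.47 (adjusted p = 0.115). Pdgfb was above all 4 PyMT spleen and marrow arrays in all 4 PyMT BrM, and Vegfa rested on PyMT BrM 1, since its difference without that array was 0.05.

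In EO771 (2 BrM against 4 naïve arrays), the same 3 genes were higher. Thbs1 differed by 6.63 (SE 0.61, adjusted p = 2.36e-05) from a naïve mean of 3.95 that was itself below the median probe, Angpt2 by 3.95 (SE 0.42, 15.5-fold, adjusted p = 6.00e-05) and Pdgfa by 3.10 (SE 0.47, 8.59-fold, adjusted p = 0.00108). They were 3 of 9 ligands, beside 1.98% of all probes higher and 1.14% lower. On the brightest probes 0 ligands were lower, also at an unadjusted p under 0.05, at which 4 were higher (Vegfa besides the 3 called). The second Igf1 probe was at -1.74 by limma (unadjusted p = 0.0182, adjusted p = 0.154), with both EO771 BrM below all 4 naïve arrays. In PyMT that probe was at -1.61 (adjusted p = 0.0702), with all 4 BrM below all 4 of their spleen and marrow arrays. Leaving out EO771 BrM 1 or 2 ended the Pdgfa call (adjusted p = 0.0111 and 0.0310). Vegfa was above all 4 naïve arrays in both EO771 BrM, with a difference of 2.33 that was not called (SE 0.93, adjusted p = 0.190). Vegfb, Pdgfb, Igf1, Hbegf and Hgf differed by 0.15, -0.45, -1.03, 0.01 and 0.30, with adjusted p between 0.522 and 0.997.

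**Figure D4:**
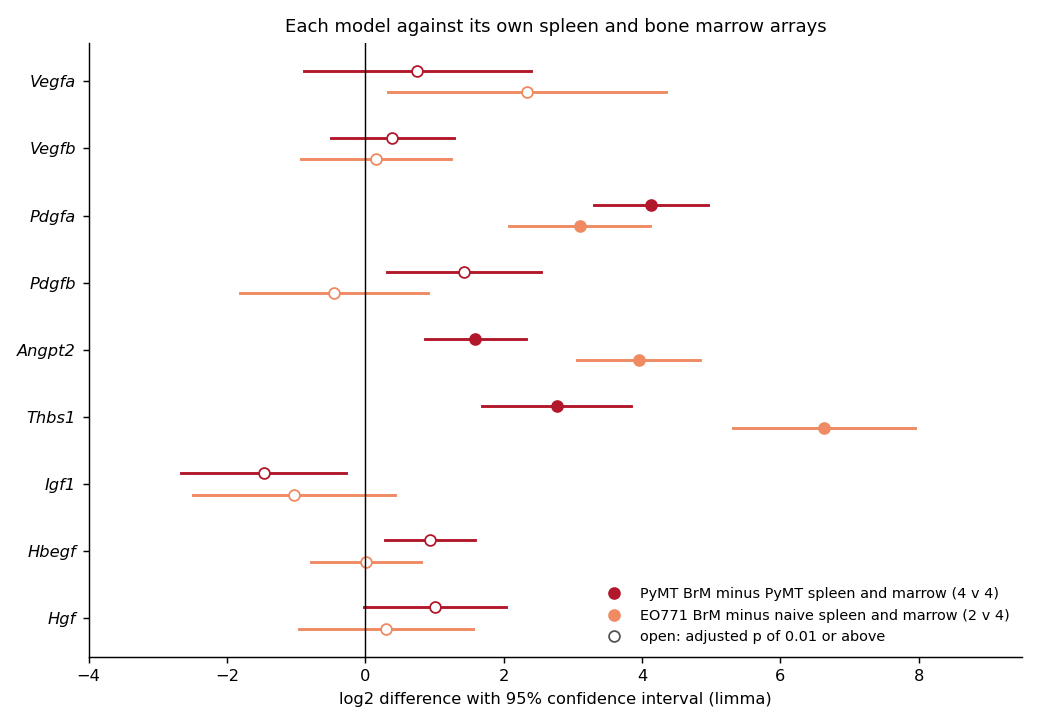
Log2 difference of each ligand (brightest probe) in PyMT BrM and in EO771 BrM, each minus its own spleen and bone marrow arrays (x axis, with 95% confidence intervals); filled points are called. Pdgfa, Angpt2 and Thbs1 were called in both, with 4.13, 1.59 and 2.77 in PyMT and 3.10, 3.95 and 6.63 in EO771.

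The difference between these contrasts, PyMT minus EO771, was called for none of the 9 ligands by limma, beside 0.130% of all probes, although 3 of the 9 had an unadjusted p under 0.05. It was -3.86 for Thbs1 (SE 0.79, unadjusted p = 2.55e-04, adjusted p = 0.0648) and -2.36 for Angpt2 (SE 0.54, unadjusted p = 6.25e-04, adjusted p = 0.103). Pdgfb had 1.88 (unadjusted p = 0.0382, adjusted p = 0.529) and Pdgfa 1.02 (95% confidence interval -0.29 to 2.34, adjusted p = 0.673). Without PyMT BrM 1, whose Thbs1 level was the highest among the PyMT BrM, the Thbs1 value was -4.39 with an adjusted p of 0.00990. The PyMT controls came from tumour-bearing mice and the EO771 controls from naïve mice, which cannot be told apart from the model in this difference.

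Set directly against each other, PyMT BrM had lower Angpt2 and Thbs1 than EO771 BrM. Angpt2 was lower by 2.63 on the log2 scale (SE 0.43, adjusted p = 0.00599) and Thbs1 by 3.38 (SE 0.62, adjusted p = 0.00979), and on both genes every PyMT BrM was below both EO771 BrM. No ligand was called higher. Over the array, 0.583% of probes were called higher and 1.00% lower. These calls were close to the threshold: leaving out 1 of 9 arrays ended that of Angpt2 (adjusted p up to 0.106) and leaving out 1 of 11 that of Thbs1 (adjusted p up to 0.119), and the exceptions were PyMT BrM 4, the 3 PyMT spleens and the PyMT marrow for Angpt2, and PyMT BrM 1, PyMT spleen 2 and the PyMT marrow for Thbs1. Only 2 EO771 BrM entered.

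In the same comparison Pdgfb was 1.88 higher in PyMT BrM (SE 0.46, adjusted p = 0.0349), which did not pass the threshold of 0.01. Without PyMT spleen 2 it had an adjusted p of 0.00344. Hbegf was at 1.13 (adjusted p = 0.0682), Vegfb at 0.92 (adjusted p = 0.177) and Vegfa at -2.42 (SE 0.81, adjusted p = 0.109). On the brightest probes, all 4 PyMT BrM were on the same side of both EO771 BrM for these 4 genes, and also for Igf1 and Hgf. The share of all probes that separated in this way is not given here, and 4 against 2 arrays can lie apart by chance. On the second Vegfa probe, PyMT BrM 1 at 8.77 was above both EO771 BrM (difference -1.24, adjusted p = 0.402). The dim second Hbegf probe was at -0.30 (adjusted p = 0.624). The other Hgf probes were at -0.16 (adjusted p = 0.865) and -0.66 (adjusted p = 0.312), opposite in sign to the brightest. For Pdgfa the difference was 0.40 (95% confidence interval -0.44 to 1.25, adjusted p = 0.624), for Igf1 0.72 and for Hgf 0.58. Monocyte markers moved with this contrast: they averaged 8.93 to 9.95 in the PyMT BrM against 10.90 and 10.72 in the EO771 BrM, with 3 of 8 lower, and epithelial and carcinoma markers 4.88 to 5.63 against 4.41 and 4.24, with 2 of 9 higher in the PyMT BrM (Krt18 by 2.83, adjusted p = 0.00946, and Cdh1 by 1.63, adjusted p = 0.00667). The part of either cell type in the ligand levels was not tested.

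Among the PyMT BrM, Vegfa and Thbs1 followed the same order of arrays. PyMT BrM 1 was highest for both, followed by 4, 2 and 3, while Angpt2 was highest in PyMT BrM 4. Over all 14 arrays, Angpt2 and Thbs1 correlated at 0.91, Vegfa and Thbs1 at 0.73, and Vegfa and Igf1 at -0.82. These values describe arrays that share conditions, sorts and normalisation.

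In the control tissues themselves, no ligand was called between spleen and bone marrow by limma, where 0.00442% of all probes were, although 6 of the 9 had an unadjusted p under 0.05. Igf1 differed by 1.39 (SE 0.44, adjusted p = 0.151), Vegfb by 1.05 (adjusted p = 0.144), Pdgfb by 0.99 (adjusted p = 0.255), Hgf by -1.26 (adjusted p = 0.163), Vegfa by -1.58 (adjusted p = 0.304) and Hbegf by 0.67 (adjusted p = 0.283). This result rested on PyMT spleen 2. Without it, Igf1 was 1.74 higher in spleen (adjusted p = 8.35e-04), Pdgfb was 1.28 higher (adjusted p = 0.00877) and Hgf was 1.53 lower on the log2 scale, at -1.53 (adjusted p = 0.00891). Over the array, 3.43% of probes were then called higher and 2.85% lower in spleen. Vegfa, at -1.91, and Vegfb, at 1.23, had adjusted p of 0.106 and 0.0128. Between PyMT spleens and naïve spleens 0 of the 9 ligands were called by limma, beside 0.115% of all probes, and 1 had an unadjusted p under 0.05, Pdgfa, with -1.38 (SE 0.41, adjusted p = 0.0949).

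The other genes of these pathways are given beside the 3.80% of all probes called higher and the 3.12% called lower in the pooled comparison. These lists, like the ligands themselves, were chosen with earlier results of these data known. Their counts beside such shares are therefore a description and not a test. Such shares, here and above, count all probes, dim ones included, whereas each gene stood by its brightest probe. The share over brightest probes alone is not given here. Of 20 other ligands of the same families, 1 was higher in BrM and 0 lower, with a median difference of 0.07 against -0.01 over all genes. That gene was Thbs2, a second antiangiogenic thrombospondin, at 4.79, 5.01, 3.36 and 4.46 in the PyMT BrM and 6.92 and 6.51 in the EO771 BrM against 0.21 to 3.40 in spleen and marrow. Its probe is dim, its difference was 2.86 (SE 0.61, adjusted p = 0.00470), and without PyMT BrM 2, EO771 BrM 1 or EO771 BrM 2 its adjusted p was 0.0107, 0.0126 or 0.0139.

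Of 20 receptors, 2 were higher and 2 lower (median 0.13). Pdgfra, the receptor for Pdgfa, was 5.55, 5.83, 3.96 and 5.69 in the PyMT BrM and 7.97 and 7.61 in the EO771 BrM, against 2.92 to 4.00 in spleen and marrow (difference 2.68, SE 0.49, adjusted p = 0.00136). PyMT BrM 3 lay within the range of the spleen and marrow arrays. These spleen and marrow levels were below the median probe, and whether they were above background is not known. Nrp1, a co-receptor of Vegfa, was 10.06 to 10.91 in the PyMT BrM and 9.09 and 9.33 in the EO771 BrM against 7.71 to 8.47 elsewhere (difference 1.97, SE 0.26, adjusted p = 8.28e-05). The receptor of Igf1 and the insulin receptor were lower in BrM. Igf1r was 5.64 to 7.29 in BrM against 7.80 to 9.90 in spleen and marrow (difference -2.40, SE 0.39, adjusted p = 5.17e-04), and Insr differed by -1.74 (SE 0.25, adjusted p = 1.61e-04).

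Of 22 carriers, sheddases and activators, 5 were higher and 1 lower (median 0.21). Without PyMT BrM 1, PyMT BrM 3 or EO771 BrM 2, 3 were higher. Sparc, a matrix protein that binds Pdgf, differed by 3.46 (SE 0.50, adjusted p = 1.96e-04) and Plat, the tissue plasminogen activator, by 2.59 (SE 0.40, adjusted p = 3.58e-04). Plat was 2.32 to 4.12 in spleen and marrow, near or below the median probe, and whether it was above background there is not known. Against bone marrow only, neither Sparc (2.69, adjusted p = 0.0141) nor Plat (2.14, adjusted p = 0.0176) was called, and with its probes averaged Plat was at 0.78 (adjusted p = 0.0124). Spint1, an inhibitor of the protease that activates Hgf, differed by 4.28 (SE 1.01, adjusted p = 0.00888). Any of 9 of the 14 arrays, PyMT spleen 2 among them, ended this call when left out (adjusted p up to 0.0244). Against spleen only, Spint1 differed by 2.41 (adjusted p = 0.0790). In the model comparisons it differed by 5.54 in PyMT (adjusted p = 0.0138) and 2.20 in EO771 (adjusted p = 0.573). It was 12.61, 12.50, 12.52 and 12.89 in the PyMT BrM and 9.80 and 10.57 in the EO771 BrM. It was 10.01, 4.40 and 9.49 in the PyMT spleens, 10.16 and 9.91 in the naïve spleens, and 4.47 to 6.12 in marrow. Igfbp6, an Igf-binding protein, was lower by 2.24 on the log2 scale (SE 0.29, adjusted p = 6.97e-05).

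Of 18 hypoxia response genes, a list that includes regulators and targets of the pathway that controls Vegfa, 5 were higher and 0 lower (median 0.29). The other 13 were not called. The mRNA of Hif1a, which encodes an oxygen-regulated transcription factor, differed by 2.34 (SE 0.34, adjusted p = 1.82e-04). P4ha1, a collagen prolyl hydroxylase, differed by 1.76 (SE 0.20, adjusted p = 2.16e-05) and Slc2a1, a glucose transporter, by 1.40 (SE 0.20, adjusted p = 1.54e-04).

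**Figure D5:**
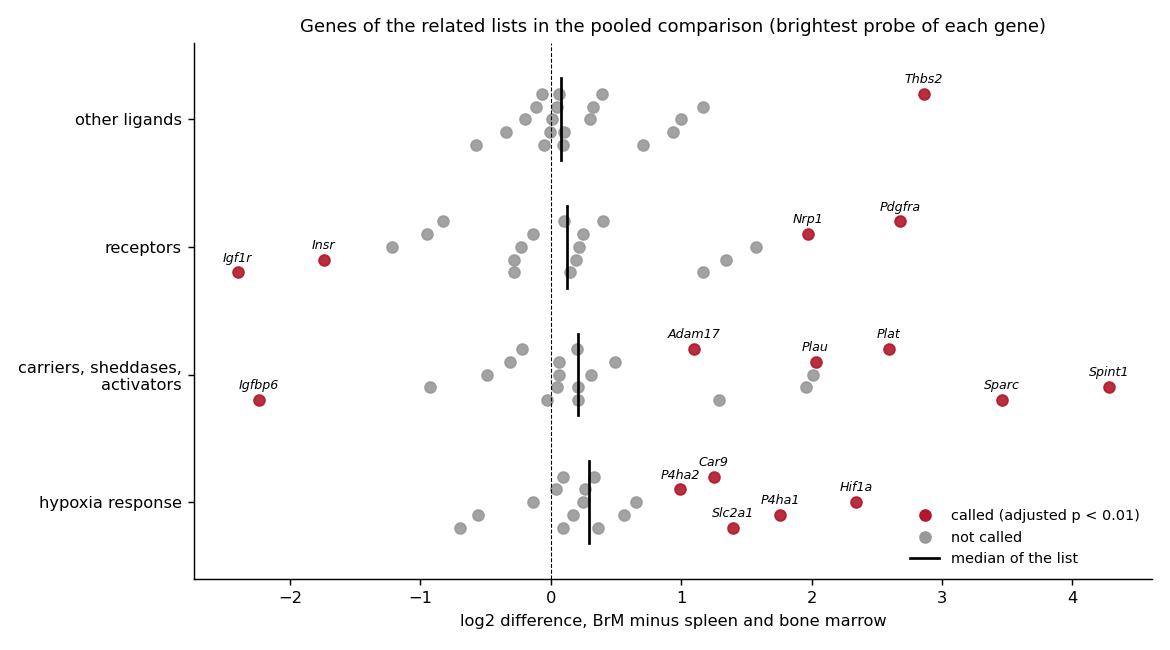
Log2 difference, BrM minus spleen and bone marrow (x axis), of each measured gene in 4 related lists (rows); red points are called and named, and black bars are list medians. Called genes were 1 of 20 other ligands, 4 of 20 receptors, 6 of 22 carriers, sheddases and activators, and 5 of 18 hypoxia response genes.

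For the 3 called ligands, the genes with the most similar pattern were sought among 12088 genes by Pearson correlation over the 14 arrays. They were Vps50 and Slamf9 for Pdgfa (0.97 each), Wasf1 and Pdgfra for Angpt2 (0.95 each), and Cav1 and Cd93 for Thbs1 (0.98 and 0.97). These arrays share their 6 conditions, sort and normalisation, and the values are a description.

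Promoter windows from RefSeq (GRCm38.p6, 250 bases before to 50 after a start) were matched for 5 of the 9 ligands. Those of Pdgfa, which rose, and Igf1, which had the negative difference, are shown for contrast, upstream of the first start, with capitals marking GGGCGG or its reverse complement. Pdgfa lies at chr5:138994945-138995194 on the minus strand and Igf1 at chr10:87860861-87861110 on the plus strand.
Pdgfa: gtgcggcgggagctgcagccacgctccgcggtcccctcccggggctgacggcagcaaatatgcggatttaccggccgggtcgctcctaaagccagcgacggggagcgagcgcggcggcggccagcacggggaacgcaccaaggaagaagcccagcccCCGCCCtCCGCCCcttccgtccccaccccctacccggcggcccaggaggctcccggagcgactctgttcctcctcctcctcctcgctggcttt
Igf1: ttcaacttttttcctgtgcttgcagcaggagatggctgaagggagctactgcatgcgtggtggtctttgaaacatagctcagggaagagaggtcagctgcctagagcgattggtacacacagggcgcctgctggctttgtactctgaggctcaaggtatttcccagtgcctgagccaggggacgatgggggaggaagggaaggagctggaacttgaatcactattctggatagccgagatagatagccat

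On both strands, the first windows held 2 matches to GGGCGG (the GC box) for Pdgfa, 2 for Vegfa, 4 for Vegfb, and 0 for Igf1 and for Hgf. This motif was in 35.7% of the 32851 windows of 300 bases. ACGTG, the core of the hypoxia response element, was in 19.6% of all windows and in 1 ligand window, at the second start of Vegfa. TATAAA was in 13.6% of all windows and in 0 of the ligand windows. The letters of the 3 motifs do not overlap, and a match is a description of the window only.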

How the data were processed

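RNA of sorted GFP+CD11b+ cells was hybridised to Illumina MouseWG-6 v2 beadchips, 1 array per sample. Per the labels and methods, the authors processed the arrays with GenomeStudio 2011.1 and limma (version not given in the sources used here); the deposited values are log2 intensities that had been quantile-normalised (the sorted arrays differ by at most 0.00192) and ran from -1.68 to 14.58. Quantile normalisation hides a shift of all genes at once. No raw signals or detection p-values were used, so whether a dim probe was above background is not known here. The methods name 4 PyMT spleens; 3 were analysed here.

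Groups were taken from the sample titles. Two-sided limma 3.58.1 models (R 4.3.3; statmod 1.5.0 for random blocks) were fitted to all 45281 probes in 2 groups (BrM; spleen and marrow), 4 groups (each model and its controls) or 6 conditions (BrM against BrM, spleen against marrow, PyMT against naïve spleen); p-values were adjusted over all probes (Benjamini-Hochberg) and called under 0.01. Comparisons share arrays and the estimate of the spread. Each gene stood by its brightest probe (highest mean over the 14 arrays); 34885 probes had 1 gene symbol, 18 several and 10378 none. Precision is limited by how few arrays there were.

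The members, gene lists and markers were chosen with earlier results of these data known. Genes named were every member, from each related list up to 3 called rises and 3 called falls of largest size, and for each called member the 2 genes of highest correlation among probes above the median. The fits were also run on simulated arrays with known changes. These were drawn as independent of each other, so arrays that share an animal were not covered, and the outcome is not given here. Same-numbered or same-coded PyMT BrM and spleens did not deviate together (correlations -0.06 to -0.00), and the main fits assumed no pairing. So few pairs cannot exclude that some arrays came from the same animals. In the pooled comparison, a random block by code stem gave a correlation of 0.11 within blocks. Alternatives were a variance trend, robust variance, dim probes left out, all probes of a gene averaged, an adjusted p under 0.05, centring on reference genes, the naïve marrow arrays averaged, replicate blocks, single control tissues, model arrays alone, the methods' t-test and leaving out each array.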

Additional observations from a re-analysis of the deposited data

Results flagged for a closer look

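In 85 groups of 4 to 8 arrays, 2 had an extreme array by Dixon's test, a rule by which chance marks about 1 group in 20. Hgf was highest in PyMT BrM 2 at 7.99, and the nearest of the other 3 PyMT BrM was at 7.25. The dim Vegfa probe was lowest in PyMT spleen 2 at 1.94, and the nearest of the other 7 spleen and marrow arrays was at 3.20. Both values were from genes that were not called in any comparison on those probes with all arrays in.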

How the results depend on the processing

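The rise of Pdgfa and Thbs1 in BrM over spleen and bone marrow passed the threshold under every alternative run. That of Angpt2 did not when all its probes were averaged (1.15, adjusted p = 0.0115), under the methods' t-test (2.33, adjusted p = 0.0137) or with a fixed replicate block by title number (2.41, adjusted p = 0.0157). Against spleen only, 1 ligand (Igf1) was lower and Vegfb and Pdgfb turned to -0.18 and -0.01; against bone marrow only, Hgf turned to -0.14. The dimmer probes gave -0.42 for Vegfa and -0.03 for Angpt2. Among the related lists, the carriers, sheddases and activators higher in BrM numbered 3 against bone marrow only (with 2 lower) and under the methods' t-test, and 3 to 6 on leaving out arrays. The hypoxia response genes higher numbered 3 with the replicate block by title number. Of the other ligands, 0 were higher with dim probes left out, under the methods' t-test and with that block, and 2 at an adjusted p under 0.05; of the receptors, 4 were higher with 6 equally weighted conditions and 4 lower at an adjusted p under 0.05.

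In PyMT, a replicate block by code stem, a replicate block by title number, or the PyMT arrays alone left 1 ligand higher (Pdgfa), and leaving out arrays left 1 to 3. With the block by code stem, Thbs1 was 2.19 (adjusted p = 0.0708) and Angpt2 1.45 (adjusted p = 0.0542); with that by title number, Thbs1 was 2.85 (adjusted p = 0.0568) and Angpt2 1.31 (adjusted p = 0.151). Angpt2 also lost its call against PyMT spleen only (1.48, adjusted p = 0.0277) and with the naïve marrow arrays averaged (1.59, adjusted p = 0.0118). Vegfa was -0.04 with the block by code stem. In EO771, Vegfb was -0.10 with the naïve marrow arrays averaged, -0.60 against naïve spleen only and -0.21 to 0.52 on leaving out arrays. Pdgfb was 0.55 against naïve marrow only and -0.82 to 0.01 on leaving out arrays. Hbegf was -0.09 with the naïve marrow arrays averaged, -0.30 against naïve spleen only and -0.18 to 0.20 on leaving out arrays. Hgf was -0.31 against naïve marrow only and -0.06 to 0.58 on leaving out arrays. None of these 4 was called. The EO771 and naïve arrays alone gave Pdgfa an adjusted p of 0.0177.

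Between the model contrasts, 0 to 1 ligands were called on leaving out arrays, and Vegfb ran from -0.12 to 0.61. Between PyMT BrM and EO771 BrM, 1 ligand was called with robust variance and with centring on reference genes, 0 with the naïve marrow arrays averaged and with all probes averaged (where Hgf was -0.08), and 0 to 3 on leaving out arrays. Between spleen and marrow, 0 to 3 were called on leaving out arrays; without the PyMT marrow this contrast could not be fitted. Dimmer probes were fitted in the pooled comparison only among the alternatives. The cause of these changes was not tested.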
